A study of Mus musculus with 48 samples.

Results

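The calcium-activated protein kinases Camk2a, Camk2b, Camk2d, Camk2g and Camk4 and the calcineurin subunits Ppp3ca, Ppp3cb and Ppp3r1 were followed in mouse amygdala and hippocampus after a behavioural session. Members were all probe sets to which the platform annotation gives 1 of these 8 symbols and no other. This took 7 genes of 8251 symbols on the array and 8 probe sets of 12422, 2 of them for Camk2a and 1 each for Camk2b, Camk2d, Camk4, Ppp3ca, Ppp3cb and Ppp3r1. No probe set named Camk2g alone, and the 396 probe sets annotated with several genes were not searched for it. The arms carry the codes FC, CS and NH, which the labels do not spell out. From the series title they were read as fear conditioning, exposure to the conditioned stimulus alone and naive home cage animals. Amygdala was measured on 6 FC, 6 CS and 10 NH arrays and hippocampus on 8 FC, 8 CS and 10 NH arrays, each hybridised with biotin-labelled target from total RNA of the dissected region. Neither strain, age, sex, genotype nor the time after the session is given in the labels, and they do not say whether an array holds 1 animal or a pool.

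Calcium that enters a stimulated neuron binds calmodulin, which switches on the CaM kinases and the phosphatase calcineurin. CaMKII, built from subunits encoded by Camk2a, Camk2b, Camk2d and Camk2g, is abundant in the postsynaptic density and is required for long-term potentiation and for spatial memory. Calcineurin pairs a catalytic subunit (Ppp3ca or Ppp3cb) with the calcium-binding regulatory subunit Ppp3r1, and it counteracts kinase signalling and has been tied to long-term depression and to the extinction of fear.

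Values are log2 intensities, on which a difference of 1 is a doubling. The labels give each array 1 of 7 processing batches, 1 to 3 for amygdala and 4 to 7 for hippocampus, without saying which step they share, and every difference between arms was estimated within batches by limma with the batch as a block. Batch 1 (6 arrays), batch 7 (6 arrays) and batch 5 (8 arrays) do not hold both NH and another arm, so each difference from NH rests on 4 NH arrays per tissue. Array medians ran from 52.3 to 56.1 in amygdala and from 76.5 to 80.8 in hippocampus, in intensity. The tissues therefore appear to have been normalized separately, and levels are set side by side across tissues only as the percentile of a probe set within its array. Of 10 hippocampal neuron probe sets, 5 had their whole hippocampus range of percentiles above the amygdala range (Prox1, Pou3f1, Dsp, Neurod6 and Tdo2), and 2 the other way (Wfs1 and Calb1). Of 7 probe sets for amygdala and piriform neurons, 2 were higher in every amygdala array (Tac2 and Cdh13) and 2 in every hippocampus array (Fezf2 and Rspo2). Beside these counts, 4.38% of all 12422 probe sets were apart in either direction, and 2.34% were higher in every amygdala array. The p-values measure the spread between arrays, which may in part be technical, since the labels do not call replicates separate animals.

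Of the members, Camk2d differed most between the tissues in median percentile. Camk2d, which encodes the delta subunit of CaMKII and is the main CaMKII gene of heart, lay at a median percentile of 51.3 in amygdala and 9.48 in hippocampus. The ranges were 39.1 to 59.0 over the 22 amygdala arrays and 6.62 to 12.1 over the 26 hippocampus arrays, so no pair of arrays overlapped. Ordered by the difference in median percentile, with amygdala higher, Camk2d ranked 2 of 12422 probe sets. Camk2b, which encodes the actin-binding beta subunit, was the other member whose arrays did not overlap, at a median percentile of 98.0 (97.6 to 98.3) in amygdala and 99.0 (98.8 to 99.3) in hippocampus. Over all probe sets 4.38% did not overlap between the tissues and 2.34% were higher in every amygdala array.

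The other 6 member probe sets overlapped between the tissues. The catalytic calcineurin subunit Ppp3cb had a median percentile of 75.0 in amygdala and 83.2 in hippocampus, and its partner subunit Ppp3ca 96.8 and 98.6 in the same order of tissues. Camk2a, which encodes the alpha subunit that dominates CaMKII in forebrain excitatory neurons, had medians of 72.7 in amygdala and 64.2 in hippocampus for probe set 93659_at. Its second probe set 93660_at had 93.9 and 89.3 in the same order of tissues. In the ranking used for Camk2d, 93659_at came 284, 93660_at 1006 and Ppp3cb, higher in hippocampus, 12086 of 12422. Ppp3r1 was at 99.3 in amygdala and 99.6 in hippocampus, and Camk4, a nuclear kinase that phosphorylates the transcription factor CREB, at 22.3 and 21.2. These levels are a description without a test, since tissue and batch cannot be told apart. In dissected tissue fewer cells of a type and less RNA per cell cannot be told apart either. Among markers of other cells, 3 of 9 inhibitory neuron probe sets (Slc32a1, Gad2 and Sst) and 2 of 6 striatal ones (Tac1 and Penk) were higher in every amygdala array. In every hippocampus array 6 of 14 oligodendrocyte probe sets, 2 of 9 inhibitory (Cck and Pvalb) and 2 of 6 choroid plexus ones (Kl and Ttr) were higher. None of the 11 astrocyte, 9 vessel, 9 microglia and 5 excitatory neuron probe sets was apart in either direction. Their part in the Camk2d rank was not tested.

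**Figure D1:**
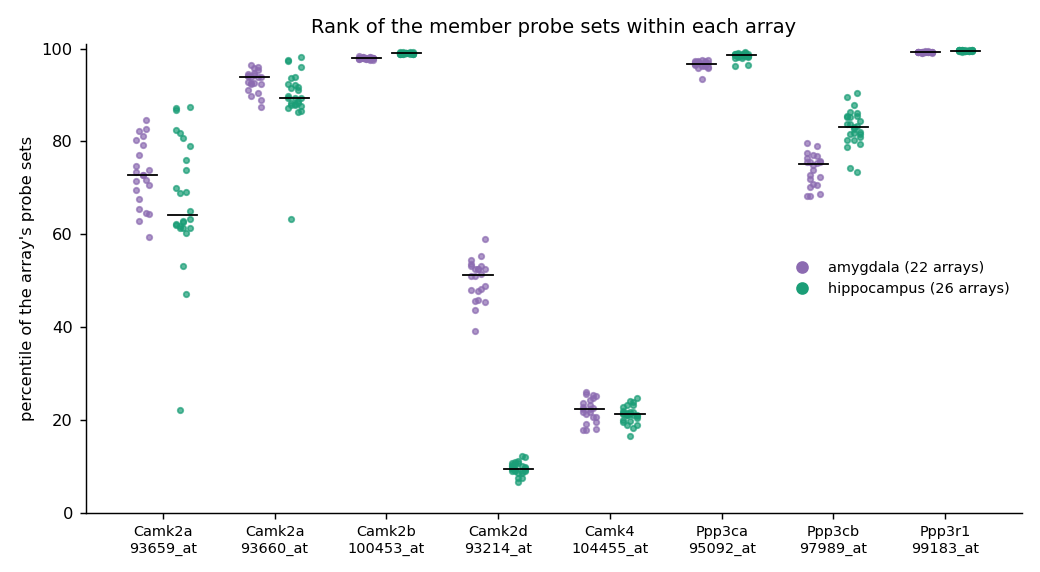
Percentile of each member probe set among the probe sets of its array, with 1 point per array for amygdala (left of each pair) and hippocampus (right) and a line at the median. Camk2d stands at a median of 51.3 in amygdala and 9.48 in hippocampus, and 1 hippocampus array has Camk2a 93659_at at 22.03 and 93660_at at 63.3.

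No member differed between arms in either tissue at an adjusted p below 0.05. In amygdala 7 member probe sets were tested and none was called in FC minus NH, CS minus NH or FC minus CS, where 0.0939%, 0.0134% and 0% of the 7453 probe sets tested were called. In hippocampus 6 were tested and none was called, against 0.0134%, 0.0134% and 0% of 7453. Camk4 fell below the filter on dim probe sets in both tissues and Camk2d in hippocampus, and without a filter neither was called. Before adjustment, p was below 0.05 for 1 member in amygdala FC minus NH (Ppp3r1), 1 probe set in hippocampus FC minus NH (Camk2a 93660_at) and 0 in the other 4 comparisons. The median member difference in FC minus NH was -0.01 in amygdala and 0.06 in hippocampus, beside medians over all probe sets of 0.01 and -0.00. With these intervals, what could be bounded differed between members, and they are described in turn, kinases before phosphatase subunits.

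**Figure D2:**
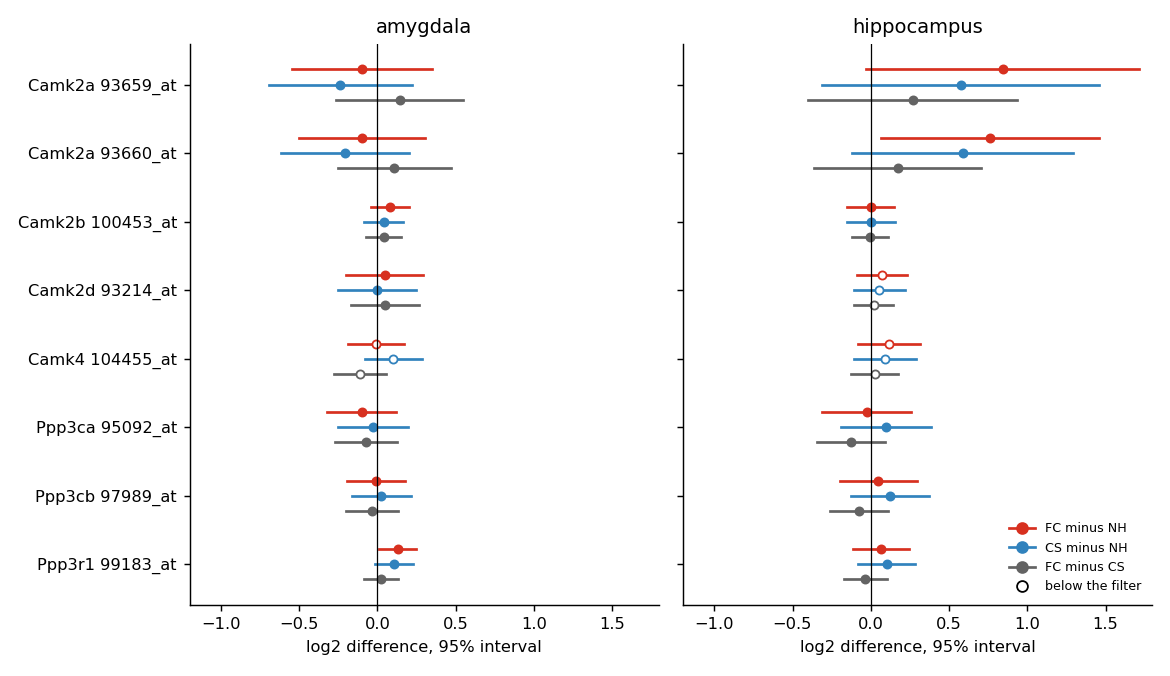
Log2 differences between arms (points) with 95% intervals (lines) for each member probe set in amygdala (left panel) and hippocampus (right panel), with open points for probe sets below the filter. Intervals of Camk2a in hippocampus are the widest of those drawn, reaching 1.72 for FC minus NH, and those of Camk2b in hippocampus stay between -0.15 and 0.16.

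Camk2a varied more than nearly any other transcript among arrays of the same arm and batch. In hippocampus, 93659_at read 6.75, 7.17 and 8.28 in FC (lowest, median and highest), 6.13, 6.87 and 8.34 in CS and 4.68, 7.19 and 7.92 in NH. The brighter 93660_at read 8.28, 8.61 and 9.98 in FC, 8.33, 8.46 and 10.17 in CS and 6.92, 8.51 and 9.46 in NH. The arms overlapped almost entirely, and their medians lay within the spread of each arm. After arm and batch were taken out, the residual SD was 0.73 for 93659_at and 0.58 for 93660_at, which rank 3 and 7 from the largest of 7453 probe sets, where the median was 0.11. In amygdala the residual SDs were 0.39 and 0.35, which rank 9 and 12, against a median of 0.11. The probe sets moved together, with r = 0.97 over 22 amygdala and r = 0.98 over 26 hippocampus arrays after batch means were removed, a description of arrays that share the same RNA and normalization.

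Batch 4 held most of that spread in hippocampus. There 93659_at read 8.28 and 8.26 in the FC arrays, 8.34, 6.46 and 6.13 in the CS arrays and 7.74 and 4.68 in the NH arrays, a span of 12.7-fold in intensity. The 93660_at probe set spanned 9.48-fold in the same 7 arrays. Each arm but FC thus had both high and low arrays within this batch. In the 8 arrays of batch 5 the spans were only 1.16-fold for both probe sets, and in batches 6 and 7 between 1.33-fold and 1.40-fold.

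**Figure D3:**
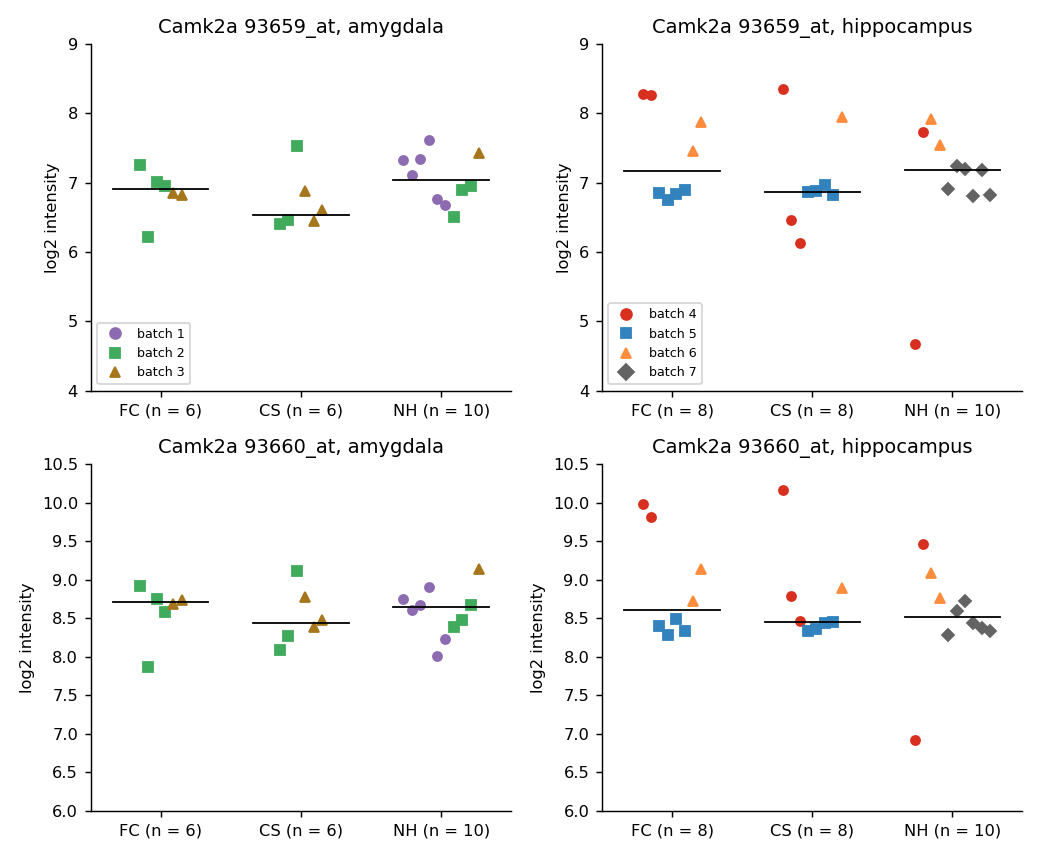
Log2 intensity of Camk2a on every array, for 93659_at (top) and 93660_at (bottom) in amygdala (left) and hippocampus (right), with arms FC, CS and NH along each x axis, symbols for the processing batch and a line at the median of the arm. Batch 4 spreads between 4.68 and 8.34 for 93659_at, whereas batch 5 lies between 6.75 and 6.96.

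Camk2a in hippocampus had the smallest p of any member there, and that value rested on 1 array. The 93660_at probe set was higher by 0.76 ± 0.339 (SE) in FC than in NH, with a 95% interval from 0.06 to 1.46 (limma, unadjusted p = 0.0337, adjusted p = 0.9999), at 8.90 ± 0.675 (SD, n = 8) in FC and 8.50 ± 0.664 (SD, n = 10) in NH. Batch 4 gave 1.70 and batch 6 gave 0.01, and 3 of 4 FC arrays exceeded all NH arrays that shared a batch with them. The 93659_at probe set differed by 0.84 (interval -0.03 to 1.72), with 2.06 within batch 4 and -0.06 within batch 6. Without NH replicate 100 the 2 values were 0.07 for 93659_at and 0.09 for 93660_at, and without batch 4 they were -0.00 and -0.01. The unadjusted p below 0.05 of 93660_at sits beside 2.27% of all probe sets with such a p in this comparison.

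The comparison of CS with NH in hippocampus gave the same picture for Camk2a. The difference was 0.58 (interval -0.31 to 1.46) for 93659_at and 0.59 (interval -0.12 to 1.29) for 93660_at, and neither passed. It turned to -0.26 and -0.14 when NH replicate 100 was left out, and leaving out NH replicate 111 instead raised it to 1.05 and 0.95. FC minus CS was 0.27 (interval -0.40 to 0.93) for 93659_at and 0.17 (interval -0.36 to 0.70) for 93660_at. Batch 4 gave 1.29 and 0.75 for these, and batch 5, with 4 arrays of each arm, -0.05 and -0.02.

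Amygdala showed no Camk2a difference beyond its spread. The 93660_at probe set read 7.86, 8.72 and 8.93 in FC, 8.09, 8.44 and 9.11 in CS and 8.02, 8.64 and 9.14 in NH (lowest, median and highest), so that the arms overlapped over most of their range. FC minus NH was -0.10 for both probe sets, with intervals from -0.55 to 0.35 (93659_at) and from -0.50 to 0.30 (93660_at). CS minus NH was -0.24 and -0.21. These values hung on batch 3, which held 1 NH array, replicate 3142153. In that batch CS minus NH was -0.79 for 93659_at and -0.59 for 93660_at, whereas batch 2 gave 0.02 and -0.02. The numbers in several amygdala titles can be read as a pair of hippocampus numbers of the same arm, so the tissues may share animals, and the labels do not say. Whether the tissues differed in the effect of FC was tested in a joint fit, in which 0% of 7664 probe sets were called for any of the 3 differences. That fit treats all arrays as independent, so its intervals and p-values hold only if they are. For 93660_at, FC minus NH was lower in amygdala than in hippocampus by a log2 difference of -0.86 (interval -1.70 to -0.01, unadjusted p = 0.0474, adjusted p = 0.986), and by -0.19 without hippocampus NH replicate 100.

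The low Camk2a arrays of batch 4 were also those with the highest 3' to 5' ratio of the Gapdh control probe sets. Such controls compare probes near both ends of a long-lived transcript, and the ratio rises when the labelled target is shorter. Its log2 was 0.48 on NH replicate 100, 0.38 on CS replicate 105 and 0.36 on CS replicate 109, and from -0.03 to 0.16 on the other hippocampus arrays. Over 26 hippocampus arrays the ratio correlated with 93659_at at Pearson r = -0.70 (permutation test, p = 0.00013, adjusted p = 0.00416 over 32 relations) and Spearman rho = -0.48 (permutation test, adjusted p = 0.248). The correlation was -0.43 without the 2 arrays farthest in the ratio and -0.33 over the 19 arrays outside batch 4. With batch means removed the correlation over all 26 arrays was -0.83. Within batches it was -0.92 in batch 4 (7 arrays, exact permutation p = 0.0179), -0.61 in batch 5 (8 arrays, exact permutation p = 0.105) and -0.07 in batch 7 (6 arrays, exact permutation p = 0.80), and batch 6 had too few arrays for a value. The rank correlation within batch 4 was -0.71 for either probe set (exact permutation p = 0.0881). All p-values within batches are unadjusted.

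For 93660_at in hippocampus, r with the Gapdh ratio was -0.43 (permutation test, adjusted p = 0.186) and rho was -0.24 (adjusted p = 0.524). The value of r was -0.17 without the 2 farthest arrays, -0.24 over the 19 arrays outside batch 4 and -0.77 with batch means removed. It was -0.88 within batch 4 (exact permutation, unadjusted p = 0.0163), -0.51 within batch 5 and 0.28 within batch 7. The 3' to 5' ratio of the actin control, among the same 32 relations, passed for both probe sets in hippocampus, with r = -0.67 for 93659_at (permutation test, adjusted p = 0.00432) and r = -0.56 for 93660_at (permutation test, adjusted p = 0.0378). Its rank correlations did not pass, with rho = -0.43 (adjusted p = 0.301) and rho = -0.28 (adjusted p = 0.433). Over the 19 arrays outside batch 4 the actin values of r were 0.01 and -0.02, and with batch means removed over all arrays they were -0.78 and -0.72. In amygdala, where the log2 Gapdh ratio ran only from -0.26 to 0.07, r was -0.38 for 93659_at and -0.24 for 93660_at, and neither passed, nor did the actin ratio there, with r of -0.32 and -0.42. With the Gapdh ratio as a further covariate, FC minus NH in hippocampus was 0.63 for 93659_at and 0.60 for 93660_at, and no member was called. NH replicate 100 also had the highest summed inhibitory neuron markers of batch 4, at 8106 against 6768 to 7125 in intensity on the 6 other arrays. It was highest for the other neuronal lists too, at 707 against 540 to 616 for striatal, 628 against 554 to 597 for amygdala and piriform, 1604 against 1448 to 1602 for hippocampal and 1589 against 1464 to 1567 for excitatory neurons. CS replicate 109 had the highest choroid plexus sum, at 1229 against 505 to 757. The part of these marker sums in the Camk2a values was not tested.

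**Figure D4:**
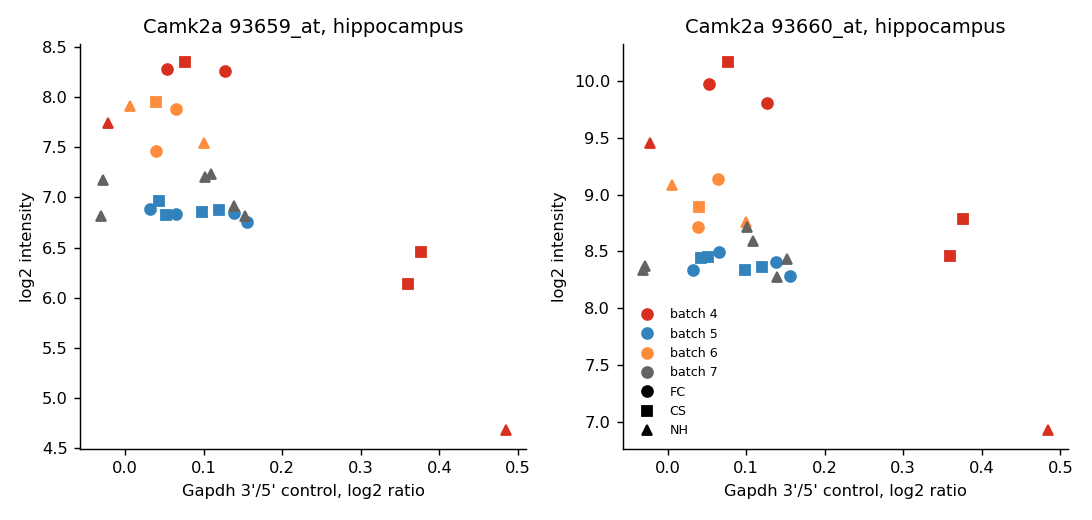
Log2 intensity of Camk2a 93659_at (left) and 93660_at (right) on the 26 hippocampus arrays against the log2 3' to 5' ratio of the Gapdh control, with colours for batches and shapes for arms. The 3 batch 4 arrays with ratios of 0.36, 0.38 and 0.48 include the lowest value of each probe set, 4.68 and 6.92, and the other arrays lie at ratios up to 0.16.

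Camk2b gave the tightest bounds among the kinases. In hippocampus it read 10.67, 10.73 and 10.92 in FC, 10.60, 10.76 and 11.03 in CS and 10.58, 10.72 and 11.01 in NH (lowest, median and highest). The arms overlapped throughout. FC minus NH was -0.00 with an interval from -0.15 to 0.15, which is 0.90-fold to 1.11-fold, and CS minus NH was 0.00 (interval -0.15 to 0.16). The batches went opposite ways, with FC minus NH at -0.22 in batch 4 and 0.16 in batch 6.

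In amygdala Camk2b read 9.61, 9.87 and 9.99 in FC, 9.75, 9.77 and 9.92 in CS and 9.55, 9.68 and 9.76 in NH. FC was higher than NH by 0.08 within batches (interval -0.04 to 0.20, limma, adjusted p = 0.894), 0.03 in batch 2 and 0.21 in batch 3. The 6 NH arrays of batch 1 averaged 9.62, the lowest mean of the 3 batches, and they do not enter this difference. When arrays were weighted by their quality in limma, Camk2b rose by 0.14 in FC (adjusted p = 0.0375), but 911 of 7453 probe sets were called under that setting. With quantile normalization of the arrays the difference was 0.02.

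Camk2d in amygdala read 5.59, 5.69 and 5.97 in FC, 5.40, 5.61 and 5.98 in CS and 5.16, 5.89 and 6.19 in NH. Its arms overlapped, and FC minus NH was 0.05 (interval -0.20 to 0.29), CS minus NH -0.00 and FC minus CS 0.05. NH replicate 28892, at 5.16, was the lowest array. Without it FC minus NH was -0.14 and CS minus NH -0.18, and neither passed. In hippocampus Camk2d lay below the filter, at 3.49 to 3.94 over all 26 arrays, and FC minus NH there was 0.07 (interval -0.09 to 0.23).

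Camk4 was dim in both tissues. It read 3.76 to 4.38 over the amygdala arrays and 4.33 to 4.92 over the hippocampus arrays, below filter limits of 5.21 and 5.79 in the same order of tissues. FC minus NH was -0.01 (interval -0.19 to 0.17) in amygdala and 0.12 (interval -0.08 to 0.31) in hippocampus, from the fit without a filter. FC minus CS in amygdala was -0.11, with 4 of 6 FC arrays below every CS array of their batch (unadjusted p = 0.173). A dim probe set compresses a difference on the RMA scale, so these intervals bound the signal and not the transcript.

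Ppp3r1, the regulatory subunit of calcineurin, had the smallest p of any member in amygdala. It read 10.51, 10.57 and 10.65 in FC, 10.35, 10.53 and 10.79 in CS and 10.35, 10.53 and 10.60 in NH (lowest, median and highest). FC was higher than NH within batches by 0.13 ± 0.0577 (SE; interval 0.01 to 0.25, limma, unadjusted p = 0.0333, adjusted p = 0.894), a ratio of 1.09-fold. Batch 2 gave 0.13 and batch 3 gave 0.12, and 6 of 6 FC arrays exceeded the NH arrays that shared a batch with them. In batch 2 the lowest FC array and the highest NH array both read 10.55, and NH arrays of batch 1 reached 10.60, so the arms as wholes overlapped. Over all probe sets 5.15% had an unadjusted p below 0.05 in this comparison.

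CS minus NH for Ppp3r1 in amygdala was 0.11 (interval -0.01 to 0.23), at 0.17 in batch 2 and 0.01 in batch 3, and FC minus CS was 0.02. With array weights the FC difference was 0.14 and was called (adjusted p = 0.0331), under the same setting with 911 calls. Without NH replicate 28892, the lowest NH array of batch 2, it was 0.08. In hippocampus Ppp3r1 read 11.22, 11.40 and 11.48 in FC, 11.15, 11.40 and 11.65 in CS and 11.02, 11.34 and 11.48 in NH. FC minus NH was 0.07 (interval -0.11 to 0.25), and -0.05 without NH replicate 100, which held the lowest value of 11.02.

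For the catalytic subunits no difference between arms exceeded the spread between arrays. Ppp3ca in amygdala read 8.54, 9.30 and 9.36 in FC, 9.04, 9.26 and 9.42 in CS and 9.11, 9.35 and 9.59 in NH, and FC minus NH was -0.10 (interval -0.32 to 0.12). FC replicate 21927 held the lowest value of 8.54, and without it the difference was 0.02. In hippocampus Ppp3ca read 9.47, 10.52 and 11.003 in FC, 10.05, 10.46 and 10.88 in CS and 9.60, 10.49 and 10.77 in NH. FC minus NH was -0.03 (interval -0.31 to 0.26), CS minus NH 0.10 and FC minus CS -0.12, with FC minus CS at -0.43 in batch 4 and 0.02 in batches 5 and 6.

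Ppp3cb behaved alike, with overlapping arms in both tissues. Amygdala arrays read 6.64, 6.90 and 7.18 in FC, 6.64, 6.82 and 7.31 in CS and 6.73, 7.04 and 7.25 in NH, and FC minus NH was -0.01 (interval -0.19 to 0.18). Hippocampus arrays read 7.70, 8.08 and 8.67 in FC, 7.43, 8.10 and 8.52 in CS and 7.48, 7.91 and 8.19 in NH, with FC minus NH at 0.05 (interval -0.20 to 0.29) and CS minus NH at 0.12 (interval -0.13 to 0.37). Without a batch term FC minus NH in hippocampus was 0.18.

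**Figure D5:**
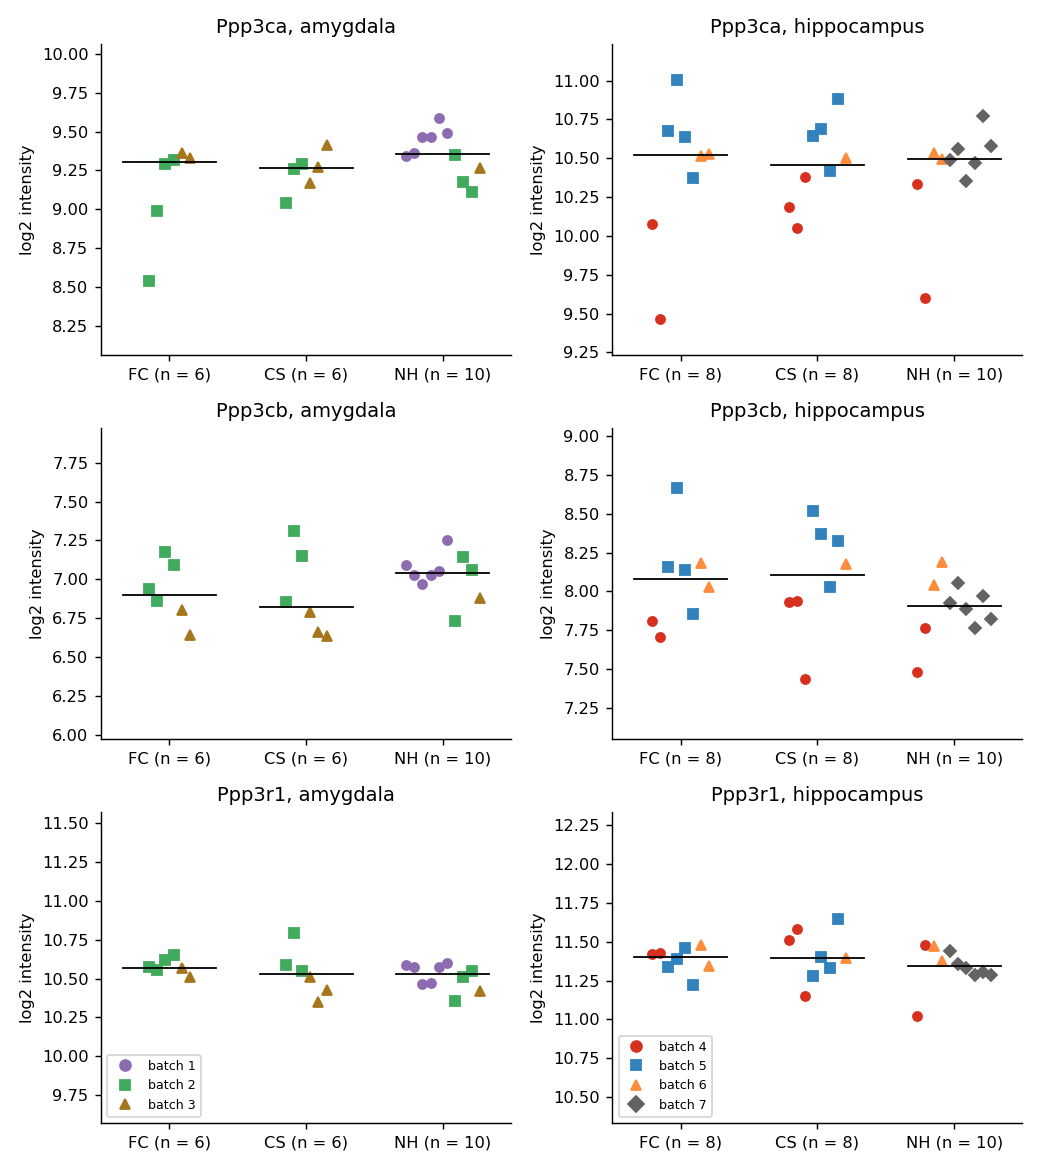
Log2 intensity of the calcineurin subunits Ppp3ca, Ppp3cb and Ppp3r1 (rows) on every array of amygdala (left) and hippocampus (right), with arms FC, CS and NH along each x axis, symbols for batches and a line at the median of the arm. Batch 4 holds the lowest Ppp3ca values of hippocampus, with a mean of 10.01 against 10.66 in batch 5.

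Some members differed between processing batches, about as often as probe sets in general. In hippocampus Ppp3ca (limma F test of batch, adjusted p = 5.17e-04) and Ppp3cb (adjusted p = 0.00191) differed between batches. They were 2 of 6 members tested, beside 25% of all probe sets. In amygdala 1 of 7 was called, Ppp3cb (adjusted p = 0.00951), beside 26.2% of all probe sets. Ppp3ca was not called there (limma F test of batch, adjusted p = 0.0872). Batch means of Ppp3ca in hippocampus were 10.01, 10.66, 10.51 and 10.54 in batches 4 to 7, and those of Ppp3cb 7.72, 8.26, 8.12 and 7.90. Ppp3cb averaged 7.07, 7.03 and 6.73 in amygdala batches 1 to 3. The counts are close to the share over all probe sets. Camk2a 93659_at averaged 7.13, 6.86, 7.75 and 7.03 in hippocampus batches 4 to 7 and was not called (adjusted p = 0.153).

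Among members, Camk2d moved with the calcineurin subunit Ppp3cb across amygdala arrays, and the values with Ppp3r1 fell more when 2 arrays were left out. With batch means removed, r over 22 arrays was 0.77 for Camk2d with Ppp3cb, 0.64 for Ppp3cb with Ppp3r1 and 0.62 for Camk2d with Ppp3r1. Without the 2 arrays farthest from the median of the first-named member of each pair, these were 0.61, 0.28 and 0.22. In hippocampus the same pairs gave 0.25, 0.55 and 0.41 over 26 arrays. Camk2b with Ppp3ca gave 0.60 in amygdala and 0.54 in hippocampus, and 0.61 and 0.37 without the 2 farthest arrays. Camk2a with Camk2b gave 0.03 (93660_at) in amygdala and -0.52 in hippocampus. That hippocampus value was -0.41 without the 2 farthest arrays, and its Spearman rho was -0.27. These values describe arrays that share RNA quality, dissection and normalization, and no p is given.

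Promoters of Camk2d, Ppp3cb and Ppp3r1 are shown from RefSeq (build GRCm38.p6): Camk2d at chr3:126596701-126597000 (plus strand), Ppp3cb at chr14:20546524-20546823 (minus strand) and Ppp3r1 at chr11:17159048-17159347 (plus strand). Each runs from 250 bases before to 50 bases after the annotated start, with capitals for each GC box (GGGCGG) and each CRE core (TGACG) on either strand:
Camk2d: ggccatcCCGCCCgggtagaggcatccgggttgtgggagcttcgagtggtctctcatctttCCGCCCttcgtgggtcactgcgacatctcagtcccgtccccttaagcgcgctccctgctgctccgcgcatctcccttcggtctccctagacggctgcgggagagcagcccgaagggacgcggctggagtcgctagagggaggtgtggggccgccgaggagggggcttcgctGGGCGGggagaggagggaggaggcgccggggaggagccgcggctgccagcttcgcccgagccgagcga
Ppp3cb: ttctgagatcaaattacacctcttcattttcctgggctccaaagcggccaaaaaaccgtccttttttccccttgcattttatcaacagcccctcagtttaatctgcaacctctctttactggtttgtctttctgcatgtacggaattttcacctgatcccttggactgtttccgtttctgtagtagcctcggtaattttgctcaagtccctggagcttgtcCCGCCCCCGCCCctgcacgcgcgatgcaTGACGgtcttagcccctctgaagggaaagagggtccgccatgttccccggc
Ppp3r1: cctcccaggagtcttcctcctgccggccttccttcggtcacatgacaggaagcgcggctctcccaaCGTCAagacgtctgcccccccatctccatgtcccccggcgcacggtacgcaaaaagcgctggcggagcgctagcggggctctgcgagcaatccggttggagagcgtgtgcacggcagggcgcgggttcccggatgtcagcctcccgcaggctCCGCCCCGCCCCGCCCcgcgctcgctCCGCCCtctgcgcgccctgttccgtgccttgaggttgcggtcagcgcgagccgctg
The promoter table held 4 of the 8 members, the fourth being Camk2b. For Camk2d and Camk2b the annotated start taken lies within the gene. The outer end of the gene on that side is at position 126595487 for Camk2d and 6066357 for Camk2b. The GC box, a site read by Sp factors, matched 3 times in Camk2d, 2 times in Ppp3cb, 4 times in Ppp3r1 and 3 times in Camk2b, and 35.7% of 32851 promoters of this length held at least 1 match. The 3 GC boxes of Ppp3r1 farthest from its start, and the 2 of Camk2b nearest to its start, overlap their neighbours by a base. The CRE core, part of the element bound by CREB, matched 1 time each in Ppp3cb and Ppp3r1, not in the windows of Camk2d and Camk2b, and in 20.8% of promoters. TATAAA and CCAAT, searched on both strands too, matched none of the 4 and are held by 13.6% and 37.4% of promoters. The GC content was 70.3% for Camk2d, 51% for Ppp3cb, 70.7% for Ppp3r1 and 77.3% for Camk2b, beside a median of 52.7%. A match describes letters only and is no evidence of binding.

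Outside the members, the transcripts closest to Camk2a 93660_at by Pearson r in hippocampus were Atp6v0a1 and Ywhag, over 26 arrays with batch means removed. Atp6v0a1, a subunit of the vesicular proton pump, had r = 0.92 but rho = 0.79. Ywhag, a 14-3-3 adaptor protein, had r = 0.92 but rho = 0.74. In amygdala the closest to 93660_at were Cdk5r1, the activator of the kinase Cdk5 (r = 0.82, rho = 0.82), and Epas1, a hypoxia-inducible transcription factor (r = 0.81, rho = 0.79), over 22 arrays. Ppp3ca was closest to Rbbp7 (r = 0.89), a histone-binding protein, and to the AMPA receptor subunit Gria2 (r = 0.89) in hippocampus, and to the vesicle fusion protein Napb (r = 0.89) and the protein kinase C Prkce (r = 0.88) in amygdala. Ppp3cb was closest to Ptbp2 (r = 0.82), a neuronal splicing regulator, and the cohesin regulator Pds5b (r = 0.81) in hippocampus, and to the mitochondrial import receptor Tomm70a (r = 0.87) and the sorting nexin Snx13 (r = 0.86) in amygdala. Ppp3r1 was closest to the chaperone Dnajb9 (r = 0.89) and Snx13 (r = 0.89) in hippocampus, and to Reep1, which shapes the endoplasmic reticulum (r = 0.87), and the phosphatase inhibitor Ensa (r = 0.85) in amygdala. Camk2b was closest to the kinase Cdk9 (r = 0.83) and the ephrin receptor Epha7 (r = 0.82) in hippocampus, and to the small GTPase Rab11b (r = 0.84) and Pgm1 (r = 0.83), an enzyme of glycogen metabolism, in amygdala. Camk2d in amygdala was closest to the GABA-A receptor subunit Gabrg1 (r = 0.85) and the G protein subunit Gnai1 (r = 0.82). For the pairs named here, rho ran from 0.69 (Ppp3r1 with Ensa in amygdala) to 0.87 (Ppp3cb with Snx13 in amygdala). For Camk2d in hippocampus and Camk4 in both tissues, all below the filter, the closest values were between 0.65 and 0.86. These are the highest of all correlations computed for a member and are given as a description.

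Other genes of the pathway did not pass either. Of 17 further calmodulin and CaM kinase genes 5 had a probe set that named them alone, and of 24 calmodulin-binding and buffering genes 18. Of 28 calcineurin subunits, regulators and targets 15 had one, and of 24 CaM kinase substrates and partners 16. In each of the 6 comparisons 0 members of each list were called higher and 0 lower by limma, and 0 to 2 per list had an unadjusted p below 0.05. Over all probe sets tested, 0% to 0.0939% were called and 0.76% to 5.15% had such a p, depending on the comparison. In amygdala FC minus NH, 14 of 17 calmodulin-binding probe sets tested, 12 of 20 calcineurin ones, 11 of 17 substrates and 2 of 4 kinases were positive. Their medians were 0.04, 0.01, 0.04 and 0.00, beside 0.01 over all probe sets.

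The leading genes of these lists in amygdala FC minus NH were the neuronal calcium sensor Hpca at 0.20 ± 0.0662 (SE; limma, adjusted p = 0.793), the anchoring protein Akap1, which tethers calcineurin at mitochondria, at 0.20 (adjusted p = 0.840), the Rac exchange factor Tiam1 at -0.16 and the myosin light chain kinase Mylk at -0.04. In amygdala CS minus NH they were Hpca (0.16), Akap1 (0.17), the coactivator Crebbp (0.16) and the calmodulin gene Calm2 (-0.05), and in FC minus CS Pde1a (-0.11), a calmodulin-dependent phosphodiesterase, Nfatc2 (0.08), a transcription factor that calcineurin activates, the actinin Actn1 (0.16) and the kinase Pnck (0.03). In hippocampus FC minus NH, 12 of 16, 13 of 19, 14 of 19 and 4 of 4 were positive, in the same order of lists, with medians between 0.04 and 0.06 beside -0.00 over all probe sets. The leading genes there were Mef2c, a transcription factor regulated by calcineurin (0.24 ± 0.0989, adjusted p = 0.9999), the synapsin Syn2 (0.17), the myosin Myo5a (0.14) and Pnck (0.07). In hippocampus CS minus NH they were the ryanodine receptor Ryr2 (0.19), Tiam1 (0.14), Akap1 (0.11) and Mylk (0.05), and in FC minus CS the scaffold Dlg4 (0.24), Mef2c (0.16), Gap43 (-0.15), a growth cone protein that binds calmodulin, and Calm2 (0.06). None of these passed.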

How the data were processed

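The authors deposited 1 intensity per probe set and array on a linear scale, made with RMA per the submitters' processing notes. No version or setting of RMA is given in those notes. Of 12488 probe sets, 66 controls were left out, and log2 of the deposited intensity was taken. Symbols came from the platform annotation. A probe set annotated with several symbols was given none but was otherwise treated like the rest. The dimmest 40% by mean were removed per tissue, so that 7453 were tested. Arms and batch were fitted with limma 3.58.1 in R 4.3.3 (lmFit, eBayes, two-sided, Benjamini-Hochberg over all probe sets tested, threshold 0.05). Both tissues entered a joint fit for the differences between them. The code was tested on simulated data. Replicates of a tissue correlated at r from 0.982 to 0.999, and no pair held identical values. The number of arrays limits the precision. The members, gene lists and tests were chosen with earlier results of these data known. Named in full were the brightest probe set of each member, the member with the smallest p in each comparison, the 2 genes most like each member and the leading gene of each list. Correlations with control ratios used 100000 permutations that took no account of batch, or all of them within batches. Alternatives changed the filter, the batch term, array weights, an offset of 16, centring, quantile normalization, averaging of probe sets and the arrays used.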

Additional observations from a re-analysis of the deposited data

Results flagged for a closer look

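In 7 of 48 groups of member arrays the highest or lowest array stood apart from the rest by more than Dixon's 95% value, where chance gives about 1 in 20 for independent groups of like arrays. That share is only a guide here, since the groups pool arrays of 2 or 3 batches, 3 of the 7 values come from 1 array and 4 from the probe sets of 1 gene. Camk2a 93659_at had its lowest hippocampus NH array at 4.68 (replicate 100), where the others lay between 6.81 and 7.92. Camk2a 93660_at was at 6.92 on the same array, with the others between 8.28 and 9.46. The regulatory calcineurin subunit Ppp3r1 was at 11.02 on this array too, with the others between 11.29 and 11.48. Ppp3ca in hippocampus NH was lowest at 9.60 on replicate 111, against 10.34 to 10.77. Camk2a 93660_at in hippocampus CS was highest at 10.17 (replicate 85), against 8.33 to 8.90. All 5 of these values come from batch 4. In amygdala, Camk2a 93660_at was lowest in FC at 7.86 (replicate 23543), against 8.58 to 8.93, and Camk2d lowest in NH at 5.16 (replicate 28892), against 5.82 to 6.19. The log2 Gapdh 3' to 5' ratio of replicate 28892 was 0.07, the highest of batch 2. The next in that batch was 0.05 on FC replicate 25589, where Camk2d read 5.80. In batch 1, NH replicate 16566 had a ratio of 0.07 and Camk2d at 5.89. The part of the ratio in the low Camk2d value was not tested.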

How the results depend on the processing

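No member was called in any comparison of arms or of tissues under any alternative tried, except 2 with array weights in amygdala FC minus NH (Camk2b and Ppp3r1). Leaving out each array in turn gave 0 members called in all 9 comparisons. Batch was called for 2 members without a filter and for 3 with quantile normalization in amygdala, against 1 in the main analysis. Over 2643 recomputed member differences, 51 moved by more than 1 residual SD and 2 passed. As no difference was called in the main analysis, none could reverse as a call. Of all probe sets, amygdala FC minus NH called 7, but 911 with array weights, 211 without a batch term, 2 with batch 2 alone or without batch 3, 1 with batch 3 alone and 4 to 9 without 1 array. Amygdala CS minus NH called 1, but 17 without a batch term, 5 with array weights, 4 with a random batch block 1 to 3 without 1 array and 0 with the 60% dimmest left out or probe sets averaged. Hippocampus FC minus NH and CS minus NH called 1 each, 7 each without a batch term, 4 and 1 with a random block, 3 and 1 with array weights, 4 and 7 in batch 6 alone and 0 each without batch 4, with the 60% dimmest left out or with probe sets averaged, besides 0 for FC in batch 4 alone and 0 for CS with only the 2 arms compared. Without 1 array they called 1 to 2 and 0 to 1. FC minus CS called 0, but 38 in hippocampus batch 6 alone and 1 in amygdala batch 3 alone. Leaving out batches 3 and 4 and adding the Gapdh ratio were chosen after seeing the data. No paired analysis was possible because the arms share no replicate number within a tissue. Dim signal limits Camk4, and Camk2d in hippocampus.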
